A study of Mus musculus with 21 samples.

Results

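Members of the heterogeneous nuclear ribonucleoprotein (hnRNP) and serine/arginine-rich splicing factor (SRSF) families were examined in the neocortex of rNLS8 mice. They were all rows of the deposited count table whose symbol begins with Hnrnp and a further letter, or is Srsf and a number. This gave 31 of 48474 rows, 20 of them hnRNP genes and 11 SRSF genes. Another 4 rows that repeat a symbol with a copy suffix (Hnrnpu-2, Srsf1-2, Srsf1-3 and Srsf3-2) and 3 pseudogene rows were left out. All 31 members passed the filter on low counts.

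rNLS8 mice carry a tTA transgene under the NEFH promoter and a tetO-regulated human TDP-43 without its nuclear localization signal, so that taking doxycycline away turns on a cytoplasmic TDP-43. The promoter limits this to neurons, apart from a few oligodendrocytes. Bulk mRNA sequencing covered 10 rNLS8 mice (labelled TG) and 11 littermates with a single transgene (labelled WT, here wild-type), all backcrossed to C57BL/6J. At 17 to 19 weeks of age an antisense oligonucleotide without a target was injected into a brain ventricle of every mouse, controls included (350 µg, 10 µL volume). Each mouse stayed on a diet with 200 mg/kg doxycycline for 2 more weeks, and was taken 3 weeks after its withdrawal. The labels give 2 batches, A with 4 wild-type and 3 rNLS8 mice and B with 7 and 7. The labels name neocortex and the study's methods brain cortex, while a figure legend names hippocampus for rNLS8 mice, and the label is used here. The labels do not state sex.

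hnRNPs and SR proteins bind nascent pre-mRNA and help set which exons are kept. SR proteins carry RNA recognition motifs and a domain rich in arginine and serine, and mostly favour the use of exons whose enhancers they bind. hnRNPs package the transcript and often favour exon skipping, and several of them shuttle to the cytoplasm. TDP-43 is itself an hnRNP-like protein that binds UG-rich RNA and represses cryptic exons, and it interacts with hnRNP A1 and A2/B1. Many genes of both families limit their own output by splicing in exons that send the transcript to nonsense-mediated decay (NMD).

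Total counts per mouse were 20700912 to 21993072 in wild-type and 20786303 to 22263809 in rNLS8 mice. Neuron markers were present in every group, at 7108 to 8681 summed CPM (counts scaled to a common library size) for 10 genes in wild-type and 5281 to 6565 in rNLS8 mice, and none of the markers searched was at 0 in all libraries. Tardbp is the mouse gene that encodes TDP-43, while the transgene is human and reads were aligned to the mouse genome. Whether the Tardbp row also holds transgene reads was not tested. That row held 2253 to 2827 normalized counts in wild-type mice. In rNLS8 mice it held 4405 to 5053 in batch B and 2363 to 3091 in batch A. The lowest of these, rNLS8 mouse 9, lay inside the wild-type range. It and rNLS8 mouse 8, both of batch A, also had the lowest median correlation with their own genotype, at r = 0.984 and 0.987 across genes, against 0.988 to 0.994 elsewhere. That measure spans both batches, and batch A is the smaller one. Within genotype and batch, the 3 rNLS8 mice of batch A (8, 9 and 10) had medians of 0.987, 0.984 and 0.987, the wild-type mice of batch A 0.989 to 0.994, and the mice of batch B 0.993 to 0.995. Results are given with mice 8 and 9, and without them where that changed a call.

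The promoters of the 5 members with the largest changes, taken from RefSeq for GRCm38.p6, are shown because these genes carry the comparison. Each runs from 250 bases before to 50 bases after the annotated start, so it covers the start of the first exon. Capitals mark matches on either strand, and neighbouring matches can share bases. The motifs searched were the TATA box with the letters TATAAA, the box named for its letters CCAAT, the GC box with GGGCGG and the E-box with CACGTG. Also searched were the ETS motif with CCGGAAG, the AP-1 motif with TGANTCA, the cAMP response element with TGACGTCA, heat shock half-sites with GAANNTTC, and the glucocorticoid receptor element by its consensus.
Srsf5, chr12:80945249-80945548, plus strand: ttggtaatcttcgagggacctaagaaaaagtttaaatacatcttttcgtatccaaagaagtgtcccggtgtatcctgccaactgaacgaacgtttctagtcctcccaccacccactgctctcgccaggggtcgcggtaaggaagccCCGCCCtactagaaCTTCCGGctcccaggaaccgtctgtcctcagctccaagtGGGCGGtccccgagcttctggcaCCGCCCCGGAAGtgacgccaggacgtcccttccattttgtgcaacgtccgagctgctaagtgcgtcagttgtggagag
Srsf12, chr4:33209022-33209321, plus strand: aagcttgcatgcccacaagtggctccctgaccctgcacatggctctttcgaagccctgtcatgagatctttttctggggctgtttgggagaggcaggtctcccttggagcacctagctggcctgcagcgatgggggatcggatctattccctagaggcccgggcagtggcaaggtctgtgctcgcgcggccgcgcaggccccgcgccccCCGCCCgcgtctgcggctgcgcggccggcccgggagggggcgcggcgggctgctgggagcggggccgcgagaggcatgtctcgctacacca
Srsf6, chr2:162931258-162931557, plus strand: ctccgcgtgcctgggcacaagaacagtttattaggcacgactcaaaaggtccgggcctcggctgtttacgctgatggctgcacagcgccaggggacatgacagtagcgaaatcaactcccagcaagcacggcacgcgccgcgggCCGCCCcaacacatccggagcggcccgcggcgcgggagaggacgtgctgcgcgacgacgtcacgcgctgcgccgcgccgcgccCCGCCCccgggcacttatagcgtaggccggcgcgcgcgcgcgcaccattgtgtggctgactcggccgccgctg
Hnrnpa3, chr2:75659009-75659308, plus strand: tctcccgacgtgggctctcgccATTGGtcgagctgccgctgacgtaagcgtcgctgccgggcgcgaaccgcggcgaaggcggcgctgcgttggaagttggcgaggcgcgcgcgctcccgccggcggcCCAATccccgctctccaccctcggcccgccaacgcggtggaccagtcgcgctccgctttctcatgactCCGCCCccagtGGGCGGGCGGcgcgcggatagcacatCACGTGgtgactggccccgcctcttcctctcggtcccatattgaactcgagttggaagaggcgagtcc
Hnrnph2, chrX:134600929-134601228, plus strand: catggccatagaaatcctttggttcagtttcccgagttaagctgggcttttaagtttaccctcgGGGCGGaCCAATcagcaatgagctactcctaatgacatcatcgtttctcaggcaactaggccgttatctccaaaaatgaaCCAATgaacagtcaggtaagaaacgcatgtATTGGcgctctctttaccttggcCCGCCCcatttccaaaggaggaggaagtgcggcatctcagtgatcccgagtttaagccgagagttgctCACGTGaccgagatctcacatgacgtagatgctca

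The Srsf5 promoter, with 56% G and C, held 3 GC boxes and 2 ETS motifs. The promoters of Srsf12 and Srsf6 held 1 and 2 GC boxes and none of the other motifs. The Hnrnpa3 promoter held 3 GC boxes, 2 CCAAT boxes and an E-box, and that of Hnrnph2 held 2 GC boxes, 3 CCAAT boxes and an E-box. The table holds 41 promoter sequences for 29 members, since some genes have several starts. Of these 41 sequences, 34 held a GC box, 21 a CCAAT box, 10 an ETS motif, 5 an E-box, 5 heat shock half-sites, 4 a TATA box, 1 an AP-1 motif, and 0 a cAMP or glucocorticoid element. Sequences of the same gene can overlap and share a match. Counted by gene, 24 of the 29 held a GC box, 17 a CCAAT box, 6 an ETS motif, 5 an E-box, 4 heat shock half-sites, 4 a TATA box and 1 an AP-1 motif. Of all 32851 promoter sequences of the same length, 35.7% held a GC box, 37.4% a CCAAT box, 8.86% an ETS motif, 7.15% an E-box, 13.6% a TATA box, 7.86% heat shock half-sites, 7.81% an AP-1 motif, 1.79% a cAMP element and 0.475% a glucocorticoid element. These matches describe the letters only. Hnrnpll and Hnrnpul2 are named without a sequence.

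Splicing factor transcripts changed in both directions in rNLS8 neocortex, and most changes were small. Past an adjusted p of 0.05 (edgeR quasi-likelihood test with batch in the model, Benjamini-Hochberg adjustment over 18248 genes), 5 members were higher (Srsf5, Srsf12, Srsf6, Hnrnpa1 and Hnrnpul1) and 9 were lower (Hnrnpa3, Hnrnph2, Hnrnpc, Hnrnpll, Srsf4, Hnrnpm, Hnrnpa2b1, Hnrnpk and Hnrnpl). Over all genes tested 44.7% passed, 23.0% higher and 21.7% lower, so the 14 of 31 members that passed are a share near the background. The median log2 fold change was -0.02 over the members and -6.75e-04 over all genes, and the median size of the change, whatever its sign, was 0.09 against 0.18. The genes were not matched for level. Srsf12, the member with the fewest counts, had 256 to 497 per mouse, while the filter's minimum count was 10. With scaling by library size only, which moves the median of all genes up by 0.08, 8 members were higher and 3 lower, and 67.9% of all called genes were higher instead of 51.4%. In bulk tissue, fewer cells of a type and less RNA per cell cannot be told apart.

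**Figure D1:**
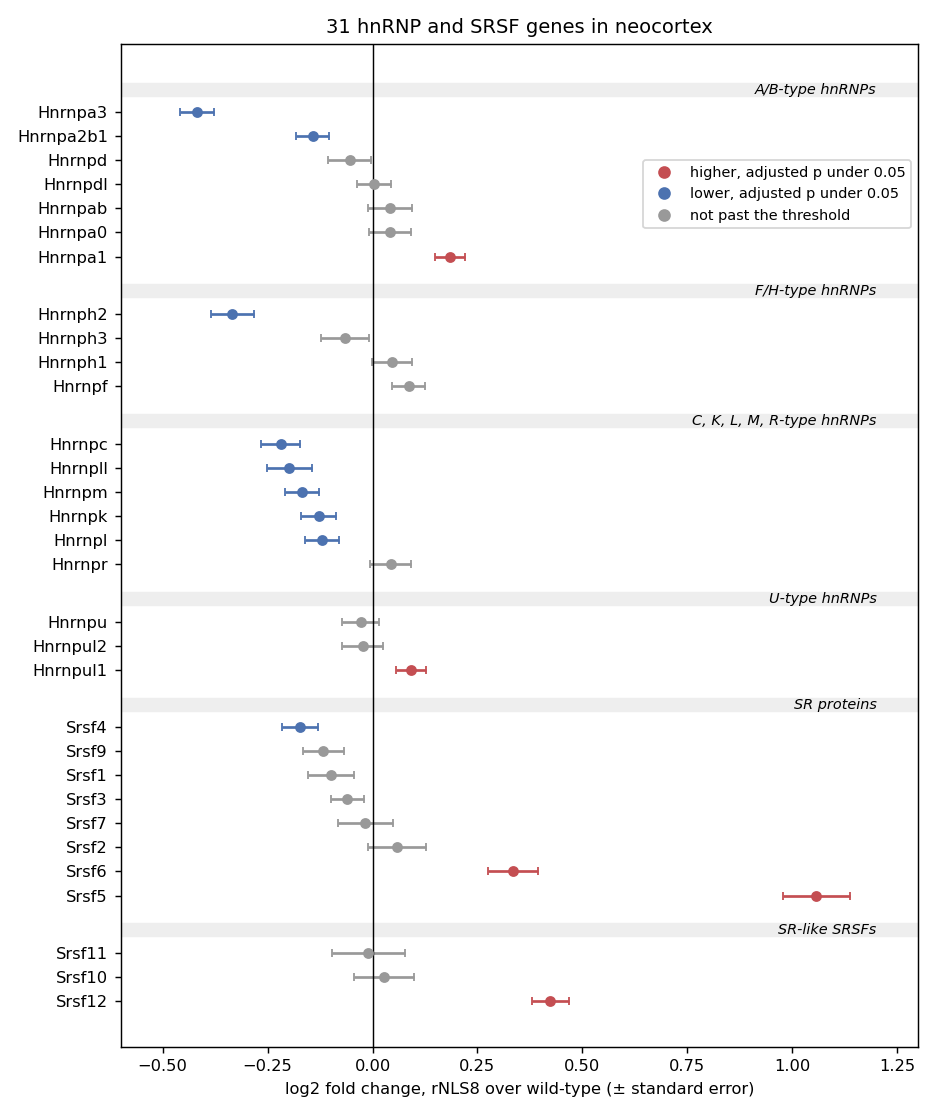
Log2 fold change of each of the 31 members in rNLS8 over wild-type mice (points) with its standard error (bars), grouped by class and coloured by whether the adjusted p was under 0.05 and in which direction. Srsf5, at 1.06, lies apart from the rest, which span -0.42 to 0.42.

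Among the 8 classical SR proteins, Srsf5, Srsf6 and Srsf4 changed. Srsf5 (SRp40), at chr12:80945504-80950507 on the plus strand of GRCm38, had lowest, median and highest normalized counts of 1637, 2453 and 2916 in wild-type mice and 4335, 5036 and 5938 in rNLS8 mice. Every rNLS8 mouse was above every wild-type mouse, also within each batch. The log2 fold change was 1.06 ± 0.0797 (SE, n = 11 and 10), a 2.08-fold higher level, with edgeR's adjusted p = 1.77e-10, and Srsf5 ranked 223rd of 18248 genes by increase. Over all genes, 7.65% had groups that did not overlap.

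Srsf6 (SRp55), another member of the same subgroup, had 919, 1211 and 1289 normalized counts in wild-type and 1233, 1492 and 1648 in rNLS8 mice. Of the 10 rNLS8 mice, 9 were above all wild-type mice. Its log2 fold change was 0.33 ± 0.0594 (edgeR's adjusted p = 6.28e-05). Srsf4 (SRp75), the close relative of both, moved the other way, with 962, 1053 and 1178 normalized counts in wild-type and 827, 921 and 1069 in rNLS8 mice. Here 9 of 10 rNLS8 mice were below all wild-type mice, and rNLS8 mouse 9 was well inside the wild-type range. Its log2 fold change was -0.17 ± 0.0432 (edgeR's adjusted p = 0.00214), and an annotated gene overlaps it on each strand. Srsf4 did not pass with scaling by library size only, nor in batch A alone (-0.13, adjusted p = 0.521 by edgeR).

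The other SR proteins did not pass the threshold. Srsf9 had a log2 fold change of -0.12 (edgeR's adjusted p = 0.0574, and 0.0133 without rNLS8 mice 8 and 9), and Srsf1, the splicing factor once named SF2/ASF, had -0.10. Srsf3, the smallest SR protein, had -0.06, Srsf7 -0.02 and Srsf2 (SC35), which marks nuclear speckles, 0.06. The rows Srsf1-2, Srsf1-3 and Srsf3-2 held 97.8% to 99.5%, 70.2% to 76.4% and 60.6% to 73.9% of the counts of the row without a suffix, and whether these rows share reads is not stated.

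Of the 3 SR-like SRSF genes, Srsf12 (SRrp35), which is known to oppose SR proteins in splicing assays, changed. It had 267, 314 and 347 normalized counts in wild-type and 347, 424 and 487 in rNLS8 mice. The ranges met at their edges, with 8 of 10 rNLS8 mice above all wild-type mice, and within each batch they did not overlap. The log2 fold change was 0.42 ± 0.0436 (edgeR's adjusted p = 2.65e-08). Srsf10, the other splicing repressor of the class, had 0.03 and Srsf11 -0.01 on the log2 scale, both with overlapping groups.

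**Figure D2:**
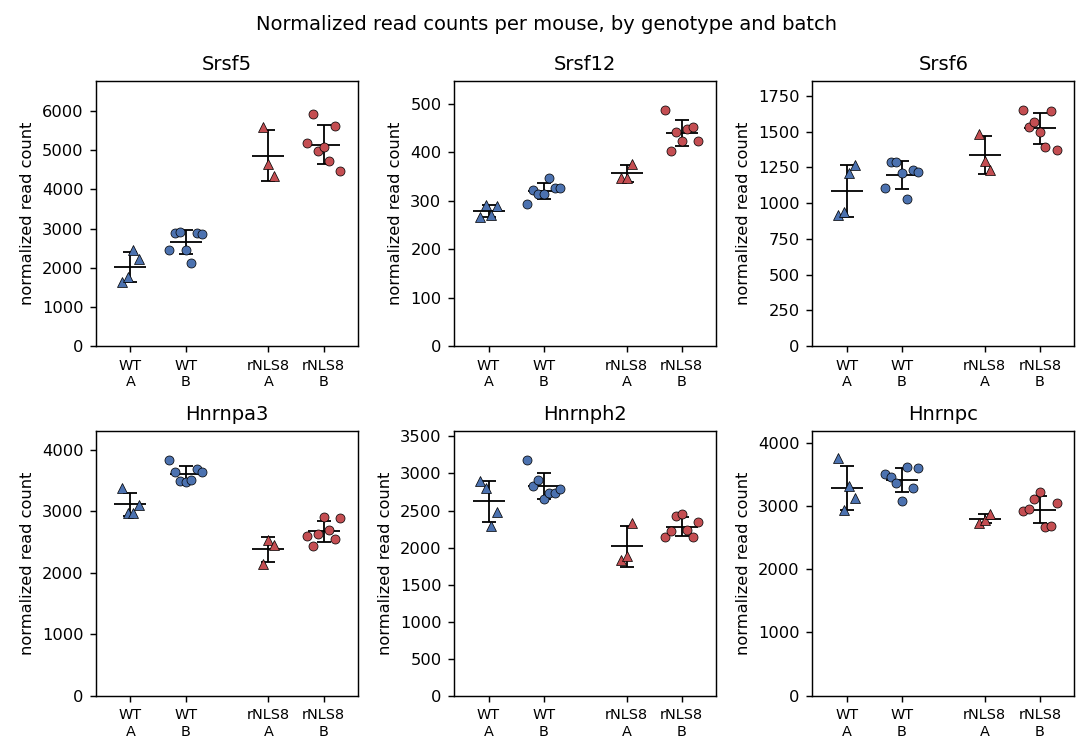
Normalized read counts per mouse for the 6 members with the largest changes, by genotype and batch (triangles batch A, circles batch B; horizontal marks and bars, mean ± SD of each group). Srsf5 lies at 1637 to 2916 in wild-type and 4335 to 5938 in rNLS8 mice, and Hnrnpa3 at 2965 to 3830 and 2147 to 2908.

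The SRSF counts of rNLS8 mice therefore held more Srsf5. Its share of all SRSF counts was 13.1% to 19.2% in wild-type mice (median 16.4%) and 27.1% to 33.2% in rNLS8 mice (median 28.8%), with no overlap. Summed over the 11 SRSF genes, normalized counts ran from 11801 to 15942 in wild-type mice (median 14928) and from 15259 to 18969 in rNLS8 mice (median 17369). Without Srsf5 the medians were 12392 and 12040, and the groups overlapped over most of their range (10164 to 13247 and 10608 to 13702). For each Srsf4 count there were 2.55 Srsf5 counts in the median wild-type mouse and 5.62 in the median rNLS8 mouse, and 1.15 and 1.64 Srsf6 counts. These shares are counts, not molecules, since the genes differ in length.

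Among the 7 A/B-type hnRNPs, which carry paired RNA recognition motifs and a glycine-rich tail, Hnrnpa3 and Hnrnpa1 moved in opposite directions. Hnrnpa3, at chr2:75659261-75669407 on the plus strand, had 2965, 3488 and 3830 normalized counts in wild-type and 2147, 2572 and 2908 in rNLS8 mice. Every rNLS8 mouse was below every wild-type mouse, also within each batch. Its log2 fold change was -0.42 ± 0.0408 (edgeR's adjusted p = 1.11e-08). A small gene, Gm24574, lies within it on the same strand.

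Hnrnpa1, an abundant shuttling member that is mutated in inherited motor neuron disease, had 3649, 4825 and 5508 normalized counts in wild-type and 4147, 5612 and 6034 in rNLS8 mice. Over all mice the ranges overlapped. Batch A was lower than batch B in both genotypes, and the genotypes were separate in batch A (3649 to 4086 and 4147 to 4472) and overlapped in batch B (4639 to 5508 and 5413 to 6034). In edgeR's test Hnrnpa1 passed in batch B alone (adjusted p = 8.78e-04) and not in batch A alone (0.285). The log2 fold change was 0.19 ± 0.0358 (edgeR's adjusted p = 0.000163). Hnrnpa2b1, which also binds UAG motifs and sorts RNA into dendrites and exosomes, had 5364, 6335 and 7071 and 4892, 5749 and 6442, with wide overlap, and a log2 fold change of -0.14 ± 0.0389 (edgeR's adjusted p = 0.00423). Without batch in the model it did not pass.

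The remaining A/B-type genes did not pass, with log2 fold changes of -0.05 for Hnrnpd (AUF1, which binds AU-rich elements), 0.00333 for Hnrnpdl, and 0.04 for each of Hnrnpab and Hnrnpa0. Per Hnrnpa1 count there were 0.633 to 0.851 Hnrnpa3 counts in wild-type mice (median 0.752) and 0.402 to 0.569 in rNLS8 mice (median 0.487). This ratio needs no scaling between libraries, and the groups did not overlap. Hnrnpa3 alone did not overlap either and Hnrnpa1 moved the other way, so the ratio is not a separate result.

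**Figure D3:**
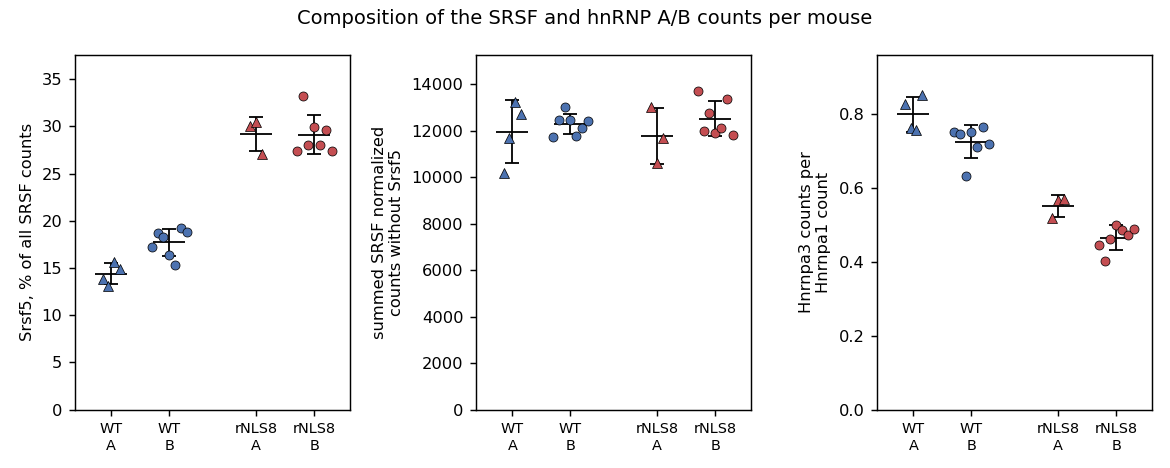
Ratios and sums per mouse by genotype and batch (triangles batch A, circles batch B; marks and bars, mean ± SD): Srsf5 as a percentage of all SRSF counts, summed SRSF normalized counts without Srsf5, and Hnrnpa3 counts per Hnrnpa1 count. The first separates the genotypes upward (medians 16.4% and 28.8%), the third downward (0.752 and 0.487), and the second does not separate them.

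Of the 4 F/H-type hnRNPs, which bind G-rich runs, only Hnrnph2 passed the threshold. It is X-linked and had 2297, 2795 and 3180 normalized counts in wild-type and 1831, 2231 and 2449 in rNLS8 mice. Of the 10 rNLS8 mice, 6 were below all wild-type mice. The log2 fold change was -0.33 ± 0.0503 (edgeR's adjusted p = 7.68e-06). Its near copy in sequence, Hnrnph1, had a log2 fold change of 0.05, Hnrnpf 0.09 (edgeR's adjusted p = 0.0761) and Hnrnph3 -0.07. Reads that fit both Hnrnph1 and Hnrnph2 could have been divided between them by the counting program, which the sources used here do not identify. The ratio of Hnrnph2 to Hnrnph1 counts was 0.764 to 1.27 in wild-type mice (median 0.881) and 0.603 to 0.852 in rNLS8 mice (median 0.707).

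Of the 6 genes of the C, K, L, M and R types, 5 were lower, where 21.7% of all genes were, and this count depended on scaling. Under library-size scaling, 1 of the 6 was lower (Hnrnpc) and 1 higher (Hnrnpr). Hnrnpc, a core packaging protein that binds uridine tracts and keeps out cryptic exons, had 2937, 3358 and 3753 normalized counts in wild-type and 2670, 2893 and 3218 in rNLS8 mice. Of the 10 rNLS8 mice, 6 were below all wild-type mice. Its log2 fold change was -0.22 ± 0.0453 (edgeR's adjusted p = 0.000343).

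Hnrnpll, best known for CD45 splicing in lymphocytes, had 808, 949 and 1044 and 584, 837 and 967 normalized counts, with the lowest value in rNLS8 mouse 9 and 2 rNLS8 mice below all wild-type mice. Its log2 fold change was -0.20 ± 0.054 (edgeR's adjusted p = 0.00431). Hnrnpm, which binds GU-rich introns, had 1442, 1725 and 1963 and 1412, 1565 and 1648, and its log2 fold change was -0.17 ± 0.0407 (edgeR's adjusted p = 0.0015). Apart from 1 rNLS8 mouse, its rNLS8 values lay within the wild-type range.

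Hnrnpk, a KH-domain protein that binds C-rich sequences, had 5447, 6451 and 6969 and 4584, 5924 and 6796 normalized counts, with 2 rNLS8 mice below all wild-type mice and the rest inside their range. Its log2 fold change was -0.13 ± 0.0415 (edgeR's adjusted p = 0.0143), and it did not pass without batch in the model or without the filter on low counts. Hnrnpl, which binds CA repeats, fell by 0.12 (adjusted p = 0.0178 by edgeR), and Hnrnpr, the relative of Syncrip, had a log2 fold change of 0.04. For Hnrnpl the log2 fold change was -0.01 in batch A alone and -0.17 in batch B alone, and the call was lost without the filter. With scaling by library size only, Hnrnpll, Hnrnpm, Hnrnpk, Hnrnpl, Srsf4 and Hnrnpa2b1 did not pass (log2 fold changes -0.12 to -0.04), while Hnrnpa0, Hnrnpf and Hnrnpr passed as higher (0.12 to 0.16).

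Of the 3 U-type genes, Hnrnpul1 was higher by 0.09 on the log2 scale (edgeR's adjusted p = 0.0406). This call was lost in 12 of 21 fits that left out a mouse, and without rNLS8 mice 8 and 9 together (adjusted p = 0.0745 by edgeR). Hnrnpu (SAF-A), which binds the nuclear scaffold, had -0.03 and Hnrnpul2 -0.02. The row Hnrnpu-2 held 100.1% to 124.3% of the counts of Hnrnpu. All 20 hnRNP genes summed to a median of 65718 normalized counts in wild-type mice and 63353 in rNLS8 mice, with overlap (57876 to 69897 and 53589 to 67050).

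On a per-length scale (normalized counts per kb of the gene's median protein-coding transcript), the order of levels in wild-type mice began with Hnrnpa2b1 at 3846 (median), Hnrnpa1 at 2778, Hnrnpk at 2421, Hnrnpa3 at 2109 and Srsf5 at 1637. Neighbouring ranges overlapped except for Hnrnpa2b1 (3257 to 4293), whose lowest mouse was above the highest for Hnrnpa1 (3171). In rNLS8 mice Srsf5, at a median of 3362, lay between Hnrnpa2b1 (3490) and Hnrnpa1 (3231), and these 3 ranges overlapped. Srsf12 had the lowest level of the 31 in wild-type mice, at 107 per kb against 144 in rNLS8 mice. The least abundant hnRNP was Hnrnpll, at 310.0 and 273 per kb.

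The batches hold different mice, so each repeats the comparison. In batch B alone, 14 members passed (39.1% of all genes did), and all 14 had the same sign in batch A, 6 of them with an unadjusted p under 0.05 in edgeR's test there. These were the members called over both batches, with Srsf9 (adjusted p = 0.0238 by edgeR in batch B) in place of Hnrnpul1 (0.313). Of the 7104 genes called in batch B and tested in batch A, 96.8% had the same sign in batch A and 55.2% also an unadjusted p under 0.05. In batch A alone, with 4 and 3 mice, 2 members passed (11.8% of genes did): Srsf5, at 1.29 on the log2 scale (edgeR's adjusted p = 6.63e-04), and Hnrnpa3, at -0.36 (0.0474). Srsf12 had 0.37 there (0.0522). Over all 31 members, 23 had the same sign in both batches.

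The genotype by batch interaction passed for 0 members and 0% of genes in edgeR's test. At an unadjusted p under 0.05 there were 1030 genes (5.64%) and 1 member, Hnrnpr (log2 fold change -0.08 in batch A and 0.10 in batch B, adjusted p = 0.869 by edgeR). DESeq2 called 1 gene and 0 members, with 1189 genes and 1 member at an unadjusted p under 0.05. In simulated data, edgeR's interaction test recovered 24 of 50 genes changed 2-fold and 12 of 50 changed 1.5-fold. Differences between batches of this size or smaller can therefore be missed. The 0 calls do not show that the genotype effect was equal in both batches. For Srsf5 the log2 fold change was 1.29 in batch A and 0.95 in batch B, and the unadjusted interaction p was 0.0639 in edgeR's test. Counts of the Tardbp row differed between the batches in rNLS8 mice as given above, and their part in the batch values of the members was not tested.

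**Figure D4:**
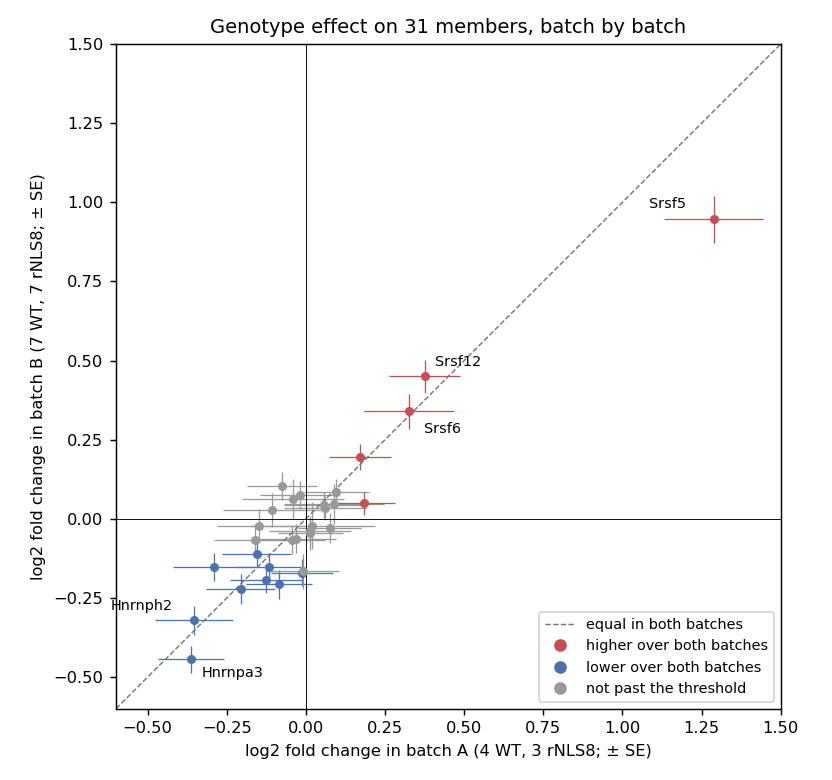
Log2 fold change of each of the 31 members in batch A (horizontal axis) against batch B (vertical axis), with standard errors, coloured by the call over both batches, and a dashed line of equal change. Srsf5 lies at 1.29 and 0.95, Hnrnpa3 at -0.36 and -0.44, and all 14 called members fall in quadrants of equal sign.

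Members were also described by their annotation in GENCODE M21. An NMD transcript is annotated for 19 of the 31 genes (61.3%) and for 27.1% of the 14160 protein-coding genes tested, and a retained-intron transcript for 22 (71.0%) and 56.4%. The members are compact genes, with a median span of 10746 bp against 25448 bp, and annotated transcripts number a median of 7 against 5. Of the 5 higher members 3 have an NMD transcript (Srsf5, Srsf6 and Hnrnpa1), and of the 9 lower members 5. Counts per gene do not separate these transcripts from coding ones. A run of UG repeats of at least 12 nt occurs in the principal transcript of 3 members (9.68%, against 8.71% of genes): 37 nt in the 5′ UTR of Hnrnph2, 43 nt in the 3′ UTR of Hnrnpd and 23 nt in the 3′ UTR of Hnrnpr. Of these genes, Hnrnph2 was lower and the other two did not pass. An annotated gene overlaps 16 members, and whether counting used strand is not stated.

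SR proteins are phosphorylated by dedicated kinases, and importins carry SR proteins (Tnpo3) or hnRNPs (Tnpo1 and Tnpo2) into the nucleus. Of 12 such kinase and importin genes 3 were higher and 2 lower (5 and 1 under library-size scaling). Over all genes 23.0% were higher and 21.7% lower. The importins Tnpo2 and Tnpo3 (transportin-SR) rose by 0.23 and 0.14 on the log2 scale (edgeR's adjusted p = 4.69e-05 and 0.00269), and the kinase Srpk2 fell by 0.18 (0.00144). Its relative Srpk1 rose by 0.14 (adjusted p = 0.0210 by edgeR). Tnpo1, which imports hnRNP A1, fell by 0.29 (0.0489), with 455 to 1335 normalized counts in rNLS8 and 1092 to 1391 in wild-type mice. Without rNLS8 mouse 9 its log2 fold change was -0.18 (adjusted p = 0.0298 by edgeR), and Tnpo1 lost its call in 13 of 21 fits with a mouse left out (adjusted p up to 0.0823 by edgeR). The kinases Clk1, Clk2, Clk3 and Clk4 did not pass.

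Of 17 SR-related and speckle proteins, 3 were higher, among them Pnn (0.33, edgeR's adjusted p = 1.97e-05) and Srrm1 (0.24, 0.00373), and 2 were lower, Thrap3 (-0.17, 0.00269) and the neuronal microexon regulator Srrm4 (-0.17, 0.0349). Srrm4 lost its call in 8 of 21 fits with a mouse left out (adjusted p up to 0.0651 by edgeR). Of 21 hnRNP relatives outside the symbol rule, 2 were higher and 5 lower. For both lists, the shares over all genes were 23.0% higher and 21.7% lower. Fubp1 rose by 0.31 (2.03e-05), while the KH-domain protein Khsrp fell by 0.25 (1.33e-04), the cold-inducible Cirbp by 0.19 (0.00633) and the paraspeckle protein Pspc1 by 0.18 (0.00272). With scaling by library size only, these lists gave 7 higher and 0 lower, and 4 higher and 1 lower.

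Neuronal splicing regulators, many of them made mainly in neurons, included larger decreases than the hnRNP genes. Of 21 tested, 4 were higher and 7 lower, where 23.0% of all genes were higher and 21.7% lower. The named ones were Elavl4 (-0.75, edgeR's adjusted p = 3.53e-09), Rbfox1 (-0.69, 1.34e-11), Nova1 (-0.60, 3.92e-09) and Khdrbs3 (-0.43, 1.56e-06). Rbfox1, which promotes exons upstream of UGCAUG, had 5863 to 6880 normalized counts in wild-type and 3283 to 4368 in rNLS8 mice, with no overlap. Summed neuron markers did not overlap either (values above), with 7 of 10 neuron markers lower, and their part in the member changes was not tested. Of 7 astrocyte markers 1 was higher and 5 lower, at 4178 to 5454 and 3309 to 4605 summed CPM. Of 8 microglia markers 6 were higher and 1 lower, at 384 to 444 and 409 to 631. Oligodendrocyte markers had 0 of 7 past the threshold (4370 to 7348 and 4195 to 7454).

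Of the 6 endothelial markers 1 was higher and 2 lower, with 235 to 272 and 199 to 260 summed CPM, and leukocyte markers were low, with 5.0 to 20.1 and 6.0 to 10.7 summed CPM. Over all genes tested 23.0% were higher and 21.7% lower. Among 17 core components of the U1 and U2 particles, which recognize splice sites, 1 was higher (Sf3b4, 0.21, edgeR's adjusted p = 0.0117) and 5 were lower, led by Sf3b5 (-0.34, 1.08e-05), U2af1 (-0.26, 3.09e-05) and Snrpa (-0.24, 5.68e-04). With scaling by library size only, 5 were higher and 3 lower. Of 10 NMD factors, 6 were higher (23.0% of all genes were) and 0 lower, at a median log2 fold change of 0.14. Library-size scaling gave 8 higher and 0 lower, at a median of 0.22, where the median of all genes was 0.08. The named ones were Upf3b (0.28, edgeR's adjusted p = 3.98e-04), the endonuclease Smg6 (0.26, 6.26e-06), Upf2 (0.20, 0.00289) and Smg8 (0.19, 0.0106). Smg6 had 853 to 1037 normalized counts in wild-type and 1041 to 1227 in rNLS8 mice.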

How the data were processed

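Neocortex mRNA of 21 mice (11 wild-type, 10 rNLS8, in 2 batches) was sequenced as 100 bp paired ends after poly(A) selection. Per gene symbol, the authors deposited raw read counts as whole numbers. Reads were aligned to GRCm38 (mm10) according to the methods. The submitters' processing notes name HISAT, HISAT2, Bowtie, Bowtie2 and RSEM without roles. Which program made the deposited counts, and whether it used strand, is not stated in the sources used here. Analysis used edgeR 4.0.16 under R 4.3.3. Low genes were removed by edgeR's expression filter (minimum count 10, minimum total 15), libraries were scaled by TMM, and genes were tested by the two-sided quasi-likelihood test with genotype and batch, with Benjamini-Hochberg adjustment over 18248 genes at 0.05. A normalized count is a count over its mouse's effective library size, times the mean of those sizes. Each standard error is the absolute log2 fold change over the square root of F. The code was tested on simulated data.

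Full values are given for the 12 called members that changed most on the log2 scale, the others by class, and up to 4 called genes of each pathway list, by the same measure. Srpk1 is named in addition, because Srpk2 is. Members, classes and lists were chosen with earlier results of these data known. Alternatives were DESeq2 1.42.0 with and without batch, edgeR without batch, other scalings and filters, each batch alone, copy rows added or left out, and leaving out each mouse. Reads carried no molecular identifiers, so 3 counts (0.135 to 0.145 CPM) limit detection for counting error only. No libraries were identical (highest r between any pair, 0.996). Plots were drawn with matplotlib 3.10.9. No protein sequences were used here.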

Additional observations from a re-analysis of the deposited data

Results flagged for a closer look

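In the 10 rNLS8 mice, values of each of the 31 members were examined with Dixon's ratio (gap over range), and in 3 members an extreme mouse was past the 95% critical value, against 1.55 that chance gives at 1 in 20. The ratio was taken over batches A and B together, and all 3 extreme values come from mice of batch A (8 and 9). The chance count assumes 1 population and does not take batch into account. Wild-type mice number more than 10 and were not searched.

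Hnrnpll was lowest in rNLS8 mouse 9 (ratio 0.494), at 584 normalized counts against 773 to 967 in the other rNLS8 mice. Without this mouse the log2 fold change was -0.15 (edgeR's adjusted p = 0.00366). Srsf4 was highest in the same mouse (0.479), at 1069 against 827 to 953. Without it the log2 fold change was -0.20 (edgeR's adjusted p = 2.96e-04). Hnrnpul2 was lowest in rNLS8 mouse 8 (0.544), at 4537 against 5609 to 6509. Without this mouse its log2 fold change was 0.0055 (edgeR's adjusted p = 0.937). In Hnrnpll the rNLS8 mean was 730 in batch A and 882 in batch B, and in Hnrnpul2 it was 5364 and 6156. In Srsf4 the medians were 906 and 924, and the other batch A mice, at 903 and 906, lay inside the batch B range of 827 to 953.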

How the results depend on the processing

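Leaving out each mouse in turn gave 4 to 5 higher and 9 to 10 lower members, and 0 with an interaction. Hnrnpul1 lost its call in 12 of these 21 fits (adjusted p up to 0.0728 by edgeR), Srsf9 gained one in 4 and Hnrnpf in 1 (without rNLS8 mouse 10, adjusted p = 0.0463). Srsf5 and Hnrnpa3 kept their calls under all 13 other alternatives. With scaling by library size only, 8 members were higher and 3 lower. In batch A alone 1 was higher and 1 lower, with 2195 of 18580 genes called, where fewer mice were tested. The other alternatives kept both counts within 1.5 times. Without batch (edgeR or DESeq2) Hnrnpa2b1, Hnrnpk and Hnrnpul1 lost their calls, and without the filter Hnrnpk, Hnrnpl and Hnrnpul1. Leaving out rNLS8 mice 8 and 9 together, chosen after seeing the data, Hnrnpul1 lost its call and Srsf9 gained one, as in batch B alone. RLE scaling also gained Srsf9. The causes were not tested.

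The log2 fold change changed sign only in members that did not pass the threshold. In batch A alone it was -0.0201 for Hnrnpab, -0.0755 for Hnrnpr, 0.0136 for Hnrnpu, 0.0122 for Hnrnpul2, -0.0398 for Srsf10 and 0.0190 for Srsf11. With library size only it was 0.0216 for Hnrnpd, 0.0115 for Hnrnph3, 0.0486 for Hnrnpu, 0.0520 for Hnrnpul2, 0.0683 for Srsf11, 0.0157 for Srsf3 and 0.0600 for Srsf7. In batch B alone it was -0.0283 for Hnrnpdl and 0.0283 for Srsf7, and without rNLS8 mice 8 and 9 it was 0.0028 for Hnrnpul2 and 0.0086 for Srsf7. For Srsf11 it was 0.0058 with DESeq2 without batch, 0.0078 with edgeR without batch and 0.0030 without a filter. With each mouse left out in turn it ran from -0.0128 to 0.0169 for Hnrnpdl, -0.0463 to 0.0055 for Hnrnpul2, -7.57e-04 to 0.0774 for Srsf10, -0.0649 to 0.0273 for Srsf11 and -0.0470 to 0.0212 for Srsf7.

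No paired analysis was possible because the labels number no replicates, and the mouse numbers used here follow deposit order and tie no mice together across groups.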
